A study of Mus musculus with 4 samples.

Results

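The interferon response genes described here are 39 mouse genes of the type I interferon system, taken by name from a list: the receptor chains, the transcription factors that carry the signal, the RNA sensors that start it, and the antiviral and antigen presentation genes it induces. All 39 had a probe on the array, 59 probes in all. The files used the listed name for 36 of them and another symbol for 3 (Isg15, listed under its older symbol G1p2, Irf9 and Dhx58). Of the 39, 28 could be tested and 11 could not, because none of their probes was well above background on all 4 arrays of either group. The whole series gave 17594 features (genes, or probes without a gene) to test.

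The cells were C2C12, an established mouse myoblast line that withdraws from the cell cycle and fuses into myotubes when serum is lowered. Both groups were grown in 10% fetal bovine serum and differentiated for 6 days, the GDF8 group with 20 nM recombinant mouse myostatin (GDF8, a TGF-beta family ligand that restrains muscle growth) renewed every 24 h, and the untreated group without it. For the differentiation medium the growth protocol names 2% horse serum and the source names of the same samples name 10%. Each of 4 two-colour arrays held RNA of 1 GDF8 and 1 untreated culture, with GDF8 in the red dye Cy5 for replicates 2 and 3 and in the green dye Cy3 for replicates 1 and 4. The labels call the arrays biological replicates without saying how cultures were kept apart, so the p-values measure the spread between these samples. No interferon or virus was added to either group, so the levels are those of cells that the protocols do not describe as stimulated.

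Type I interferon binds a receptor made of the IFNAR1 and IFNAR2 chains, whose Janus kinases phosphorylate STAT2; it joins IRF9 in a complex that binds the interferon-stimulated response element (ISRE) in the promoters of antiviral genes. Cells that sense foreign RNA make interferon through IRF3 and IRF7, and many genes of the system keep a low level of expression without infection. Myoblasts, like most nucleated cells, carry the receptor and the sensors.

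The ISRE is the element that ties many of these genes to 1 signal, so stretches of promoter that hold it are shown. They cover the members that were lower on all 4 arrays and have such a promoter match. Isg15, a classical ISRE gene, and Igtp, a GTPase of the wider pathway, are added. So is Oas1a, which was not well above background in most channels. The stretches come from RefSeq (GRCm38.p6), run 5′ to 3′ on the strand of the gene, end before the annotated start, and have each match to the letters GAAANNGAAA, read on either strand, in capitals.
Ifit1, chr19:34640765-34640833, plus strand: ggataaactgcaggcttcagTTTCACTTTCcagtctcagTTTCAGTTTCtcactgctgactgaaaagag
Gbp2, chr3:142620584-142620633, plus strand: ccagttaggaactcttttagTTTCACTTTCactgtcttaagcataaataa
Rsad2, chr12:26456543-26456592, minus strand: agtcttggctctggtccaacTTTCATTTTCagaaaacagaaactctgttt
Isg15, chr4:156200855-156200916, minus strand: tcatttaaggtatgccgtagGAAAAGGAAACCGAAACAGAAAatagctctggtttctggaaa
Oas1a, chr5:120907526-120907565, minus strand: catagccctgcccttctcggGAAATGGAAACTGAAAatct
Igtp, chr11:58199502-58199551, plus strand: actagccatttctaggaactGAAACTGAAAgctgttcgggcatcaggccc

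The matches lay from -104 to -76 relative to the start in Ifit1, from -59 to -50 in Gbp2, from -120 to -111 in Rsad2, from -78 to -57 in Isg15, from -20 to -5 in Oas1a and from -34 to -25 in Igtp. Ifit1 held 2 separate matches, and the 3 of Isg15 and the 2 of Oas1a overlapped. RefSeq promoter windows of 300 bases, from 250 before to 50 after the start, matched 32 of the 39 members; Dhx58, Usp18, Oas1b, Oas2, Mx1, Mx2 and Tap2 had none. The ISRE letters were present in 16 of the 32, against 1079 of 27025 genes (3.99%) in the whole table. The members that held it were Stat2, Irf2, Ifih1, Ddx58, Ifit1, Ifit3, Isg15, Oas1a, Oas1g, Oas3, Gbp2, Gbp3, Bst2, Ifitm3, Rsad2 and B2m. The letters TTCNNNGAA, the interferon-gamma-activated site (GAS), which read the same on both strands, were present in 10 of 32 members (31.2%) and in 9.55% of all genes. A match describes the letters alone.

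After 6 days in GDF8, Mx2, a dynamin-like GTPase of the interferon response, was lower, and no other of the 28 members passed the test in either direction. Mx2 was 1.68-fold lower, with a fitted log2 ratio of GDF8 over untreated of -0.75 ± 0.11 (SE, n = 4 arrays). It was 1 of 28 members (3.57%) called lower at an adjusted p under 0.05, where 2.29% of all features were. None of the 28 was called higher, where 0.853% of all features were. At an unadjusted p under 0.05, 3 members (Gbp2, Ifit1 and Mx2; 10.7%) were lower against 7.12% of all features, and 0 were higher against 5.31%. The methods' t-test on single channels (unadjusted p under 0.05 and a fold over 1.6) called 0 members higher, against 0.386% of all features, and 1 lower (Mx2; 3.57%), against 1.59%.

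**Figure D1:**
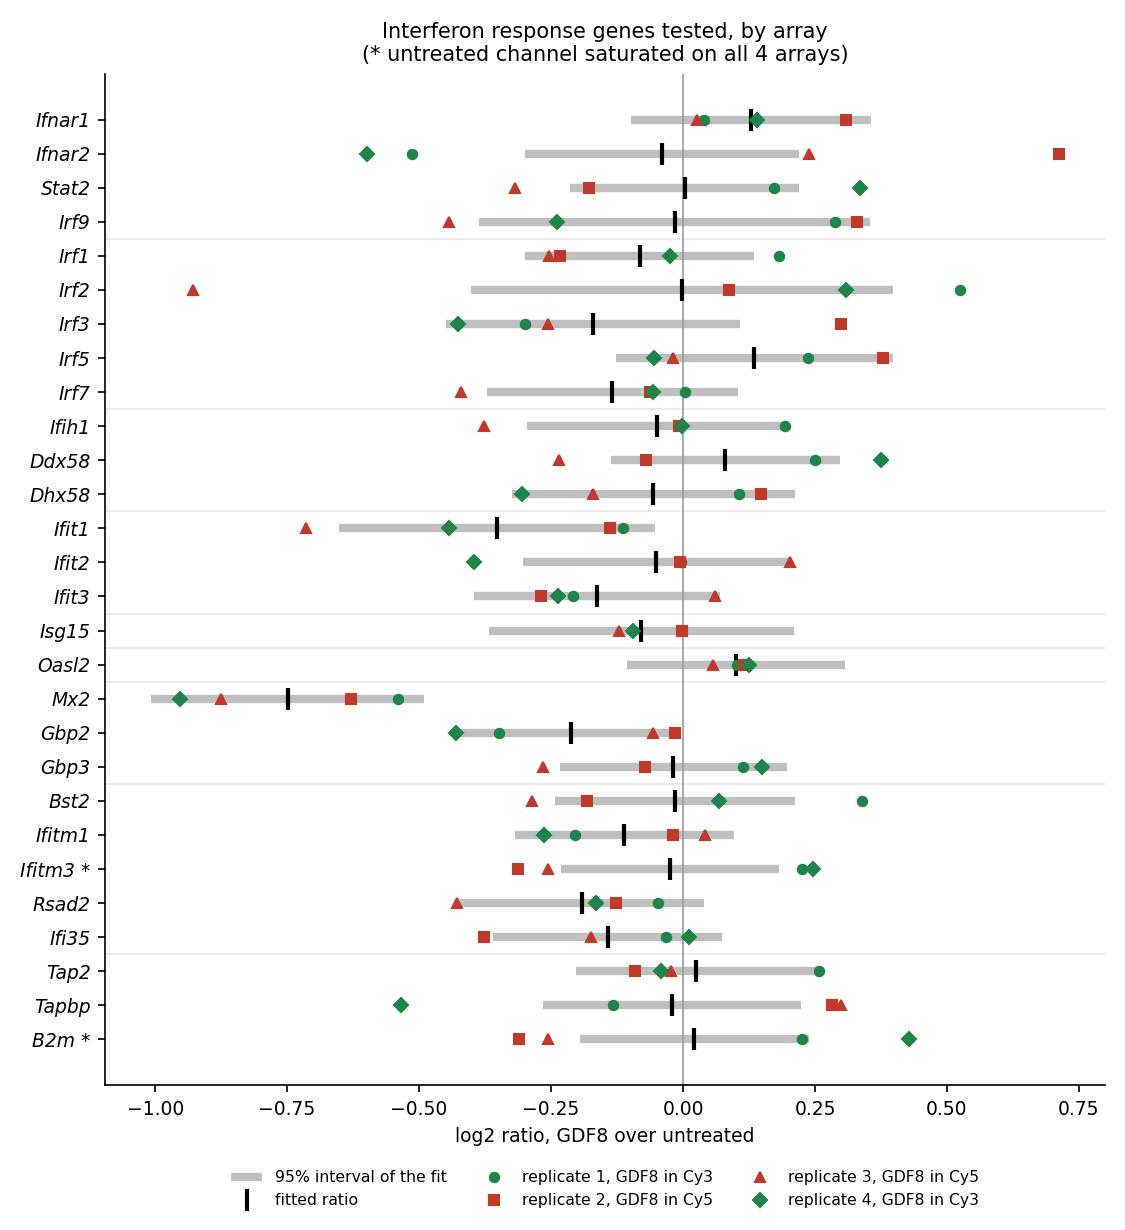
Log2 ratio of GDF8 over untreated (x axis) for the 28 members tested (y axis, grouped by role); points are the 4 arrays, coloured by the dye that held GDF8, black ticks are fitted ratios and grey bars their 95% intervals. All 4 points of Mx2 lie between -0.95 and -0.54, and the fitted ratios of the other 27 lie between -0.35 and 0.14.

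Across the 28, the median fitted log2 ratio was -0.04, with quartiles of -0.14 and -0.001, beside a median of 0.01 over all features. Fitted ratios were negative for 21 members and positive for 7, and over all features 8402 were negative and 9192 positive. Without Ifitm3 and B2m, saturated in all untreated channels, 20 of 26 were negative and the median was -0.05. The members' median was 0.10, -0.04, -0.24 and -0.06 on the arrays of replicates 1 to 4. The median of all features on those arrays was -0.02, 0.04, 0.03 and -0.08. Beside it, the members lay higher on replicates 1 and 4, with GDF8 in Cy3, and lower on replicates 2 and 3, with GDF8 in Cy5. The members' median was lowest on replicate 3, where 21 of 28 members were below 0 against 47.0% of all features. It was highest on replicate 1, where 11 of the 27 measured there (40.7%) were below 0 against 53.2% of all features. Without replicate 3 the members' median was -0.01, and without replicate 1 it was -0.11.

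**Figure D2:**
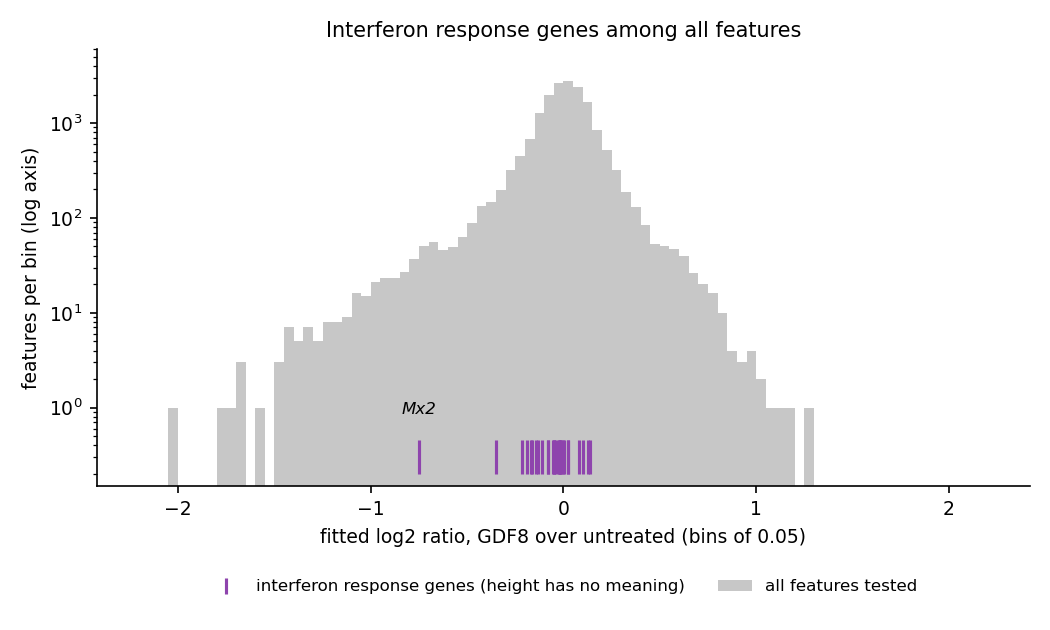
Histogram of the fitted log2 ratios of all 17594 features (grey bars, bins of 0.05, log axis) with the 28 members as purple ticks at an arbitrary height. Apart from Mx2 at -0.75 the ticks lie between -0.35 (Ifit1) and 0.14.

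Agreement across arrays was also counted. The ratio was below 0 on all 4 arrays for 4 members (Gbp2, Ifit1, Mx2 and Rsad2; 14.3%), against 8.15% of all features. It was above 0 on all 4 arrays for Ifnar1 and Oasl2 (7.14%), against 6.74%. All 4 GDF8 channels lay below all 4 untreated channels for Mx2 alone (3.57% of the members, 3.76% of all features), and no member had all GDF8 channels above all untreated channels, where 2.01% of features had. These shares of the members rest on 1 to 4 genes each.

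Of the receptor and signal genes, all 4 were tested and none passed. Ifnar1, a receptor chain, had log2 ratios of 0.04, 0.31, 0.03 and 0.14 on replicates 1 to 4, above 0 each time but by a narrow margin on replicates 1 and 3; the fit gave 0.13 ± 0.10 (limma adjusted p = 0.78). Ifnar2, the other chain, split by dye: -0.51 and -0.60 where GDF8 was in Cy3, and 0.71 and 0.24 where it was in Cy5, with a fitted ratio of -0.04. A dimmer probe of Ifnar2 gave -0.06 without that split. Stat2 (0.003) and Irf9 (-0.02), of the ISRE-binding complex, had fitted ratios near 0 with a wide spread between arrays. Stat2 split by dye, with 0.17 and 0.34 where GDF8 was in Cy3 and -0.18 and -0.32 where it was in Cy5, and Irf9 ran from -0.44 to 0.33 without that split.

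Among the interferon regulatory factors, 5 of 6 were tested and none passed. Irf3, the factor activated by RNA sensing, had ratios of -0.30, 0.30, -0.26 and -0.43, with replicate 2 alone above 0 (fit -0.17 ± 0.12, limma adjusted p = 0.74). Without replicate 3 the fit of Irf3 was -0.03. Its second probe had a fit of -0.16 but opposite signs on replicates 2 and 4 (-0.15, -0.42, -0.53 and 0.45). Irf7, which amplifies interferon production, stood at 0.004, -0.06, -0.42 and -0.06: only replicate 3 was clearly low (fit -0.13, limma adjusted p = 0.78). Irf5, a factor of Toll-like receptor signalling, was higher on replicates 1 and 2 (0.24 and 0.38) and close to 0 on replicates 3 and 4 (-0.02 and -0.06), with a fit of 0.14 (limma adjusted p = 0.82).

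Irf1, an activator of interferon-gamma target genes, was measured by a bright probe that was saturated in 2 GDF8 and 3 untreated channels and gave 0.18, -0.23, -0.25 and -0.02. A dimmer Irf1 probe that was never saturated gave 0.31, 0.07, 0.03 and -0.12. The 2 probes differed in the sign of their fits (-0.08 and 0.07), both small against their standard errors. Irf2, which competes with Irf1 for DNA, had the widest spread of the family, from -0.93 on replicate 3 to 0.53 on replicate 1, around a fit of -0.002 ± 0.17. Irf8, a factor of myeloid cells, was well above background in at most 2 GDF8 channels and 1 untreated channel and was not tested.

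The 3 cytosolic RNA sensors were all detected in every channel and none passed. Ifih1 (MDA5) had a fit of -0.05, Dhx58 (LGP2), which modulates the other sensors, -0.06, and Ddx58 (RIG-I) 0.08. Ddx58 had 4 probes past the filter, whose fits ran from 0.06 to 0.18, all above 0. The brightest of them gave 0.25, -0.07, -0.23 and 0.37 on replicates 1 to 4, above 0 only where GDF8 was in Cy3. Every other Ddx58 probe was below 0 on some array.

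The IFIT proteins bind viral RNA and hinder its translation, and all 3 genes had negative fits without passing. Ifit1 had log2 intensities in untreated cells of 9.20, 9.23, 9.69 and 9.07 and in GDF8 cells of 9.09, 9.09, 8.97 and 8.63, so the groups overlapped. Its ratio was negative on every array and largest on replicates 3 and 4 (-0.11, -0.14, -0.71 and -0.44). The fit gave -0.35 ± 0.13 with a 95% interval from -0.65 to -0.05 (limma adjusted p = 0.30). Ifit3 was below 0 on replicates 1, 2 and 4 (-0.21, -0.27 and -0.24) and at 0.06 on replicate 3 (fit -0.16 ± 0.10, limma adjusted p = 0.66). Ifit2 had a fit of -0.05, and its second probe -0.02.

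Of the ISG15 system, Isg15, a ubiquitin-like protein joined to other proteins after interferon, had a value on 3 arrays, since its spot was flagged as an outlier on replicate 1. Its ratios on replicates 2 to 4 were -0.003, -0.12 and -0.10, all at or just below 0, and the fit over those 3 arrays gave -0.08 ± 0.12. Usp18, the protease that removes ISG15 and dampens receptor signalling, was well above background in 2 GDF8 and 3 untreated channels, too few to be tested.

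Active oligoadenylate synthetases make the second messenger that activates RNase L, and 6 of the 7 genes of this family were too dim to test. Oas1b, Oas1g and Oas2 were not well above background in any of the 8 channels. Oas3 and Oasl1 reached it in 1 GDF8 and 1 untreated channel, and Oas1a in 2 GDF8 and 1 untreated. Oasl2 was the exception, detected in every channel with ratios of 0.10, 0.12, 0.06 and 0.13. It was higher on all 4 arrays by nearly the same small amount, yet its untreated and GDF8 channels overlapped between arrays, and the fit of 0.10 ± 0.09 did not pass (limma adjusted p = 0.84).

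**Figure D3:**
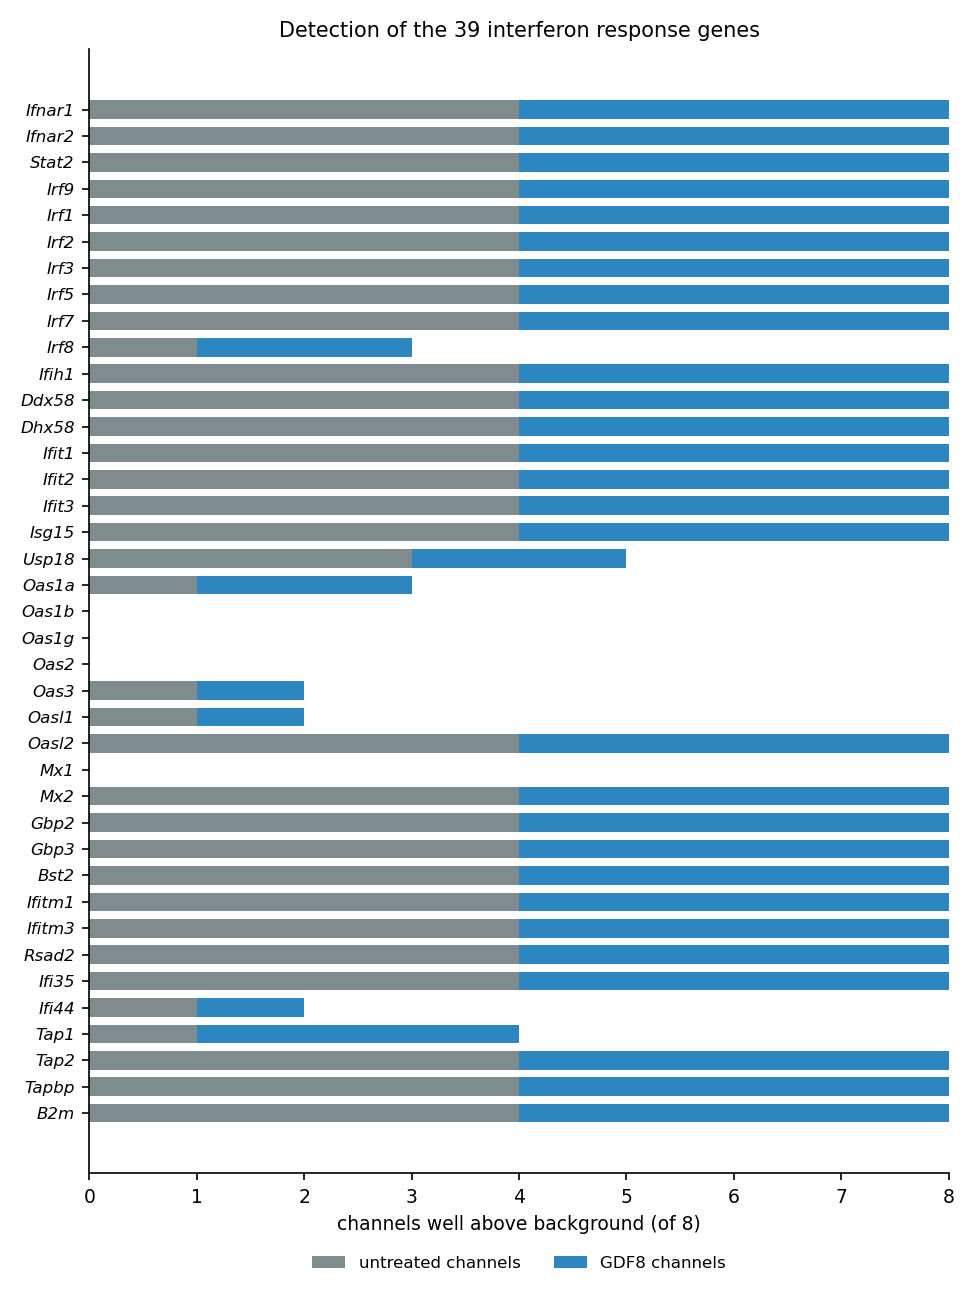
Number of the 8 channels (4 untreated, 4 GDF8; x axis) in which the best probe of each of the 39 members (y axis) was well above background. The 28 members tested reach 8 channels, and the 11 others between 0 and 5, among them 6 of the 7 oligoadenylate synthetases.

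The GTPases held the 1 member that passed. Mx2 had log2 intensities in untreated cells of 9.85, 9.95, 9.95 and 9.96, close together, and in GDF8 cells of 9.31, 9.32, 9.08 and 9.0. The GDF8 channels all lay below the untreated ones (9.18 ± 0.16 against 9.93 ± 0.05, SD, n = 4 each). The ratios were -0.54, -0.63, -0.87 and -0.95 on replicates 1 to 4, and the dye term was -0.003, so both orientations gave the same size. The 95% interval of the fit ran from -1.01 to -0.49 (limma adjusted p = 0.020), and the methods' t-test gave an adjusted p of 0.036.

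The Mx2 call ended when replicate 2, 3 or 4 was left out (limma adjusted p = 0.069, 0.071 and 0.071), with ratios of -0.81, -0.69 and -0.65, and held without replicate 1 (-0.85, adjusted p = 0.028). Over all alternatives the adjusted p ran from 0.0048 to 0.071. The lowest came with median centring in place of loess. There Mx2 and Ifit1 had the same SE of 0.18, so that value does not reflect the spread of Mx2 itself. Mx2 had 1 probe. RefSeq lists Mx1 and Mx2 in GRCm38.p6, the genome of the C57BL/6J strain, as transcribed pseudogenes, and likewise Oas1b, while the other 36 members are protein-coding; Mx genes are known to be defective in many inbred mouse strains. Mx1, the nuclear paralogue, was not well above background in any channel.

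**Figure D4:**
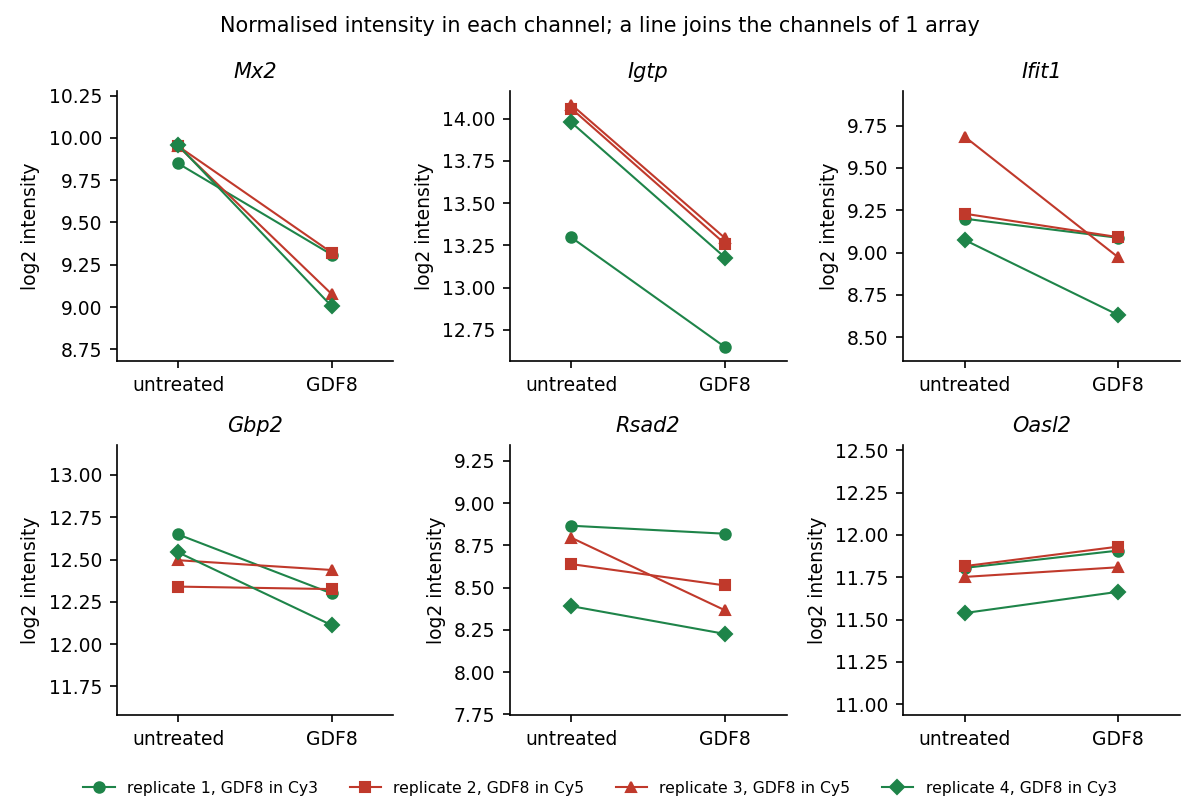
Normalised log2 intensity in untreated and GDF8 channels (x axis) for 5 members and for Igtp of the wider pathway; each line joins the channels of 1 array, and all panels span the same height. Lines of Mx2 and Igtp drop on all 4 arrays, by 0.54 to 0.95 and by 0.65 to 0.80, and those of Oasl2 run nearly level.

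The guanylate-binding proteins attack the vacuoles of intracellular pathogens. Gbp2 had untreated levels of 12.65, 12.34, 12.50 and 12.54 and GDF8 levels of 12.30, 12.33, 12.44 and 12.11 (log2 intensity), and the groups overlapped, the untreated channel of replicate 2 lying below the GDF8 channel of replicate 3. Its ratios were -0.35 and -0.43 where GDF8 was in Cy3 but -0.01 and -0.06 where it was in Cy5. The fit gave -0.21 ± 0.09 (limma adjusted p = 0.39). Gbp3, on the same chromosome, stood at -0.02.

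Of the membrane and other effectors, 5 of 6 were tested and none passed; 4 had negative fits, and the probe of the other, Ifitm3, was saturated. Rsad2 (viperin), an enzyme that makes a chain-terminating nucleotide, had untreated levels of 8.87, 8.64, 8.79 and 8.39 and GDF8 levels of 8.82, 8.51, 8.37 and 8.23, with wide overlap. Its ratios of -0.05, -0.13, -0.43 and -0.16 were all negative, largest on replicate 3, and the fit of -0.19 ± 0.10 did not pass (limma adjusted p = 0.54). A pair of other Rsad2 probes were well above background in only 2 GDF8 channels and 1 untreated channel and were not tested. Both were above 0 on replicate 3 (0.007 and 0.25). Ifi35, an interferon-induced leucine zipper protein, had -0.03, -0.38, -0.17 and 0.01, lowest in the arrays with GDF8 in Cy5 (fit -0.14, limma adjusted p = 0.70).

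Ifitm1, which hinders virus entry at the membrane, had -0.21, -0.02, 0.04 and -0.26, lower where GDF8 was in Cy3 (fit -0.11, limma adjusted p = 0.80). Bst2 (tetherin), which holds budding virus at the surface, ran from -0.29 to 0.34 around a fit of -0.02. Ifitm3 was so bright that its probe was saturated in all 4 untreated and 3 GDF8 channels, and no fold is given for it. Ifi44 was well above background in 1 channel of each group and was not tested.

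Of the antigen presentation genes, Tap2, a subunit of the peptide transporter, had a fit of 0.03. Tap1, its partner, was well above background in 3 GDF8 channels and 1 untreated channel and was not tested. Tapbp (tapasin), which loads peptide on class I molecules, was saturated in 2 channels of each group and split by dye, with -0.13 and -0.53 for GDF8 in Cy3 and 0.28 and 0.30 for Cy5; its fit was -0.02. A second Tapbp probe, never saturated, gave 0.33, 0.03, 0.26 and -0.18, with a fit of 0.11.

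B2m, the light chain of class I molecules, had a pair of probes saturated in all 4 untreated and 3 GDF8 channels, and no fold is given from them. Another B2m probe, never saturated, gave -0.17, -0.06, -0.39 and 0.52 on replicates 1 to 4, with replicate 4 apart in sign, and a fit of -0.02 ± 0.14. In all, 7 members had over 1 probe past the filter, and in 3 of them (Irf1, Tapbp and B2m, each with a saturated probe among them) the probes disagreed in sign, in none by over 0.5 in log2.

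In the main fit, the 27 members that did not pass had 95% intervals between -0.65 and 0.40 in log2. All were inside the 1.6-fold limit that the study's methods used, either way. Ifit1, whose interval set the lower bound, had a fit of -0.35 there. Its fit was -0.40 ± 0.16 in the values the authors deposited and -0.50 ± 0.15 without replicate 2. Both are further from 0 with a larger SE than the main fit (0.13), so the bound of the main fit does not extend to them. For Ifitm3 and B2m the interval carries no such bound, since saturation limits the ratio, and for Irf1 and Tapbp saturation touches 5 and 4 channels. The precision of all of these is limited by the number of arrays. In whole cultures, fewer cells of a type and less RNA per cell cannot be told apart.

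For some members the ratios differed between the dye orientations, and whether the dye caused this was not tested. The dye term, 0.5 times the difference between the arrays with GDF8 in Cy5 and those with GDF8 in Cy3, had a median size of 0.14 among the members and 0.14 over all features. It exceeded the fitted GDF8 ratio in size for 16 of the 28 (57.1%), against 60.8% of all features. It was negative for 17 of the 28 (60.7%), against 41.1% of all features. Among members never saturated it was largest for Ifnar2 (0.52) and Irf2 (-0.42), and it was small for Mx2 (-0.003) and Oasl2 (-0.01). The term of Irf2 came mostly from replicate 3 (-0.93), since replicate 2, of the same orientation, was at 0.09.

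**Figure D5:**
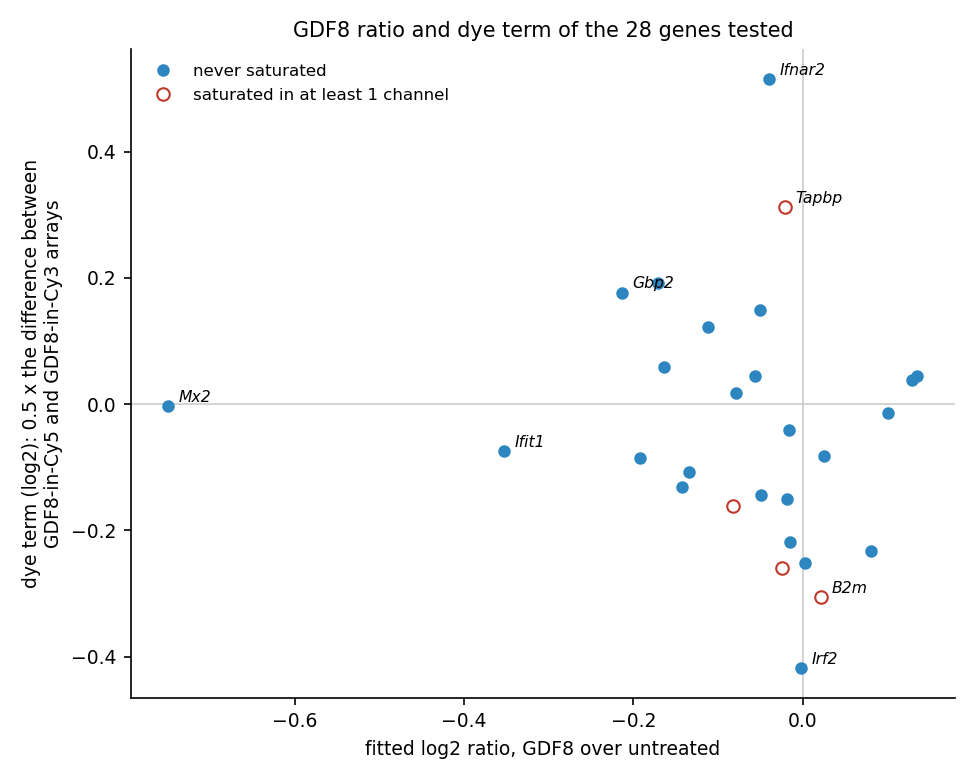
Fitted log2 ratio of GDF8 over untreated (x axis) against the dye term (y axis, log2) for the 28 members, with open circles for probes saturated in at least 1 channel. Mx2 lies at -0.75 with a dye term of -0.003, while Ifnar2, Tapbp, Irf2 and B2m lie near 0 on the x axis with dye terms of 0.31 or more in size.

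The ratios were also read by promoter match, leaving out Ifitm3 and B2m, whose probes were saturated in all untreated channels. The 11 tested members whose promoter window held the ISRE letters had a median fitted ratio of -0.05, and the 12 without them -0.05; no test of this difference was made. Mx2, Dhx58 and Tap2 are outside both counts.

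A further 78 genes of the interferon pathway were read beside the members, of which 62 could be tested. In this list 0 were higher, against 0.853% of all features, 1 was lower (Igtp; 1.61%), against 2.29%, and 61 did not pass. At an unadjusted limma p under 0.05, 1 was higher (1.61%, against 5.31%) and 2 were lower (3.23%, against 7.12%). Of the 62, 17 were saturated in at least 1 channel, and the other 45 had a median of 0.01. Of 8 interferon genes, only Ifng could be tested (-0.07), while Ifnb1, Ifna2, Ifna4, Ifna5, Ifnk, Ifne and Ifna1 could not. Of the 7 other receptors, kinases and signal genes, 3 were saturated in some channel and the other 4 had a median of -0.02. Of the 6 feedback inhibitors, 2 (Ptpn11 and Socs3) were saturated in some channel and the other 4 had fits from 0.07 to 0.21. Among these, Ptpn2 (fit 0.07) and Pias1 (0.09) split by dye, with dye terms of 0.49 and 0.44. The 12 sensing genes and adaptors, never saturated, had a median of 0.08.

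Igtp, an interferon-gamma-induced GTPase that protects against intracellular parasites, had untreated log2 intensities of 13.30, 14.06, 14.08 and 13.98 and GDF8 intensities of 12.65, 13.26, 13.29 and 13.18. Replicate 1 was dimmer in both channels, and its untreated channel lay just above the highest GDF8 channel, that of replicate 3. The ratios were -0.65, -0.80, -0.79 and -0.80, with replicate 1 smallest in size and a fit of -0.76 ± 0.09 (limma adjusted p = 0.013). The call ended without replicate 2 or 4 (adjusted p = 0.068 and 0.055), without the array as a block (adjusted p = 0.20), and in the methods' t-test after adjustment (0.39).

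The next pathway genes by p did not pass. Iigp1, a related GTPase, was at -0.14, -0.12, -0.43 and -0.52, lower on every array (fit -0.30, limma adjusted p = 0.30). Ifi203, of a family of DNA-binding interferon-induced proteins with close paralogues, was at 0.50, 0.36, 0.03 and 0.49, above 0 throughout (fit 0.34 ± 0.10, limma adjusted p = 0.17). A dimmer Ifi203 probe gave -0.11, 0.08, 0.07 and 0.55, below 0 on replicate 1, with a fit of 0.15. Socs1, a feedback inhibitor of Janus kinases, had a fit of 0.21, Ticam1, the adaptor of Toll-like receptor 3, 0.18, and Psmb9, an immunoproteasome subunit, 0.16.

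The labelled cell type was checked against markers. All 10 skeletal muscle markers were well above background and tested, 8 of them saturated in some channel, and 1 was lower (Ckm, muscle creatine kinase, with a log2 ratio of -0.93 ± 0.18 and a limma adjusted p of 0.049). Of 8 macrophage and leukocyte markers, Ptprc, Adgre1 and Itgam were not well above background. The 5 others (Cd68, Csf1r, Cd14, Fcgr3 and Lyz2) were well above background and tested, with none passing. The summed intensity of the 8 ran from 12125 to 13320 in untreated and from 10418 to 15611 in GDF8 channels. Of 6 dendritic and lymphoid markers 3 were tested, with sums of 1945 to 3177 in untreated and 1787 to 2995 in GDF8 channels, and of 5 endothelial markers 2. None of these markers passed the test. Of 5 fibroblast markers 4 were tested, but 3 of them (Dcn, Col1a1 and Col3a1) were saturated in most channels; the unsaturated Pdgfra did not pass.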

How the data were processed

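Expression was measured in C2C12 cells after 6 days with or without GDF8, on 4 two-colour arrays with 1 RNA of either group each. The deposited scanner files (Feature Extraction 9.1.1.1, design 014868, per the file headers) hold the intensity of each spot and its background in both channels. They also hold a log10 ratio of red over green and, per the file headers, other columns that flag spots as saturated, as outliers or as clearly brighter than background. A value table that the authors deposited holds log2 ratios: it equalled the processed ratio, turned to GDF8 over untreated, for 100% of the 40929 probes spotted once (tolerance 0.001). Its column medians were 0.13, -0.09, -0.11 and 0.09, so it was not centred. Per the series' design text, the authors used GeneSpring GX 12, a flag filter and an unpaired test with p under 0.05 and fold over 1.6.

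Here normexp (offset 50) and loess within arrays, with no weight on control spots, were run in limma (version 3.58.1; R 4.3.3). Outlier spots were dropped, which left 646 of 41174 probes short of a value somewhere. A probe passed if every array of 1 group had it well above background and at least 3 arrays gave a value (26937 did). The brightest probe stood for a gene, saturated or not. Dye labels set the direction. The limma fit had a GDF8 and a dye term, the array being the block, with Benjamini-Hochberg adjustment over 17594 features. An exact sign test over 4 arrays cannot go below a two-sided p of 0.125.

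Of the 43379 spots that were not controls, 63.3% to 78.8% passed the background flag in a channel, while 9.20% to 12.1% were saturated in red and 0.745% to 5.49% in green. Over all features, ratios of arrays with the same dye orientation correlated at 0.47 (1 with 4) and 0.47 (2 with 3), and those of opposite orientation between -0.20 (1 with 3) and 0.16 (1 with 2).

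RefSeq (GRCm38.p6) gave names: 24375 probes matched by accession, 6301 by symbol, 2426 by synonym, and for 8072 the deposited name was used. The members and lists were chosen with earlier results of these data known. Every array's value is given for members past the threshold, the 12 with the smallest p and those whose probes disagree in sign or by over 0.5. Of the pathway list, genes past the threshold and the 6 with the smallest p are named, and a few others are named after their values were seen. Alternatives were: no background correction, offset 10, median centring, other filters, no dye term, unpaired channels, other probes, the methods' t-test, a fold of 1.6, the authors' table, each array left out and, chosen after seeing the data, centring on each array's median after loess.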

Additional observations from a re-analysis of the deposited data

Results flagged for a closer look

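The ratios of the 28 members and 6 pathway genes and the members' median, where 4 arrays had a value, gave 34 groups of 4 to search for an array apart from the others, and chance alone is set to find about 1 in 20. In 2 of them an array stood apart. Irf7 was at -0.42 on replicate 3, with the other arrays between -0.06 and 0.004. Igtp was at -0.65 on replicate 1, with the others between -0.80 and -0.79.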

How the results depend on the processing

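No member was higher under any of the 18 alternatives, and Mx2 was called lower in 15 of them. Several of the 15, such as other filters and other probes, left the ratio of Mx2 at -0.75, since it had 1 probe, never saturated. Those alternatives say little about how stable the call is. It was lost without replicate 2, 3 or 4. Without the array as a replicate block, Mx2 stayed past the threshold (adjusted p = 0.014) and 0 further pathway genes were lower. Leaving out 1 array gave 0 to 1 members lower and -0.85 to -0.65 for Mx2, 0 to 1 pathway genes lower, and 8 to 105 features higher and 78 to 324 lower, against 150 and 403 with all arrays. Features called higher numbered 65 without the dye term, 57 without the block, 68 by the methods' t-test at p under 0.05 with a fold over 1.6, 24 by the methods' t-test after adjustment, 61 with a fold over 1.6 beside the limma adjusted p, and 98 in the authors' table. Features called lower numbered 258 without the block and 87 by the methods' t-test after adjustment, which also called 0 pathway genes. A fit with 1 array left out has fewer degrees of freedom, and the causes of these changes were not tested. Of 21 genes named by rule, only Mx2 and Igtp were called with all arrays, and each lost its call under some alternatives. The other 19 were not called in the main fit or under any alternative. Of the 21, 18 kept their sign (Irf1, Tapbp and B2m did not). The members' median kept its sign, from -0.11 to -0.01, in the 15 alternatives that give one. Saturation limits B2m and Ifitm3, and dimness the 11 members not tested.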
